A study of Mus musculus with 18 samples.

Results

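The genes described here are 39 members of the unfolded protein response and the integrated stress response, the programmes with which a cell answers misfolded protein in the endoplasmic reticulum (ER), lack of amino acids and other stress. They were chosen by name and kept in separate arms: 21 genes of the ATF4 arm, 14 of the chaperone arm, and 4 genes that act upstream, the ER sensors with Xbp1. All 39 were found among the 55401 genes of the endothelial table and all 39 among the 22612 lines of the EO771 table. Their levels were followed in 18 mouse RNA-seq libraries in 6 groups of 3. BEC normal are blood vessel endothelial cells of the mammary fat pad, and BEC tumour are those of EO771 primary tumours. HEC normal are high endothelial cells of lymph nodes labelled normal. For HEC tumour the labelled tissue is lymph node metastases. The endothelial cells were sorted as CD45-negative, CD31-high cells from wild-type female C57BL/6 mice, HECs in addition as PNAd-positive. The labels give neither the age at sampling nor the number of mice per library. In the last 2 groups the EO771 line itself, derived from a mouse mammary tumour, was cultured with vehicle (DMSO in saline) or with 12-HETE, the lipid made from arachidonic acid by the lipoxygenase ALOX12. The labels give no dose or time for the treatment. The study describes the replicates of both tables as independent experiments, while the labels do not say which animals or cultures each library came from.

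In the integrated stress response, kinases such as PERK (Eif2ak3) phosphorylate the translation initiation factor eIF2. General translation then falls while translation of the transcription factor ATF4 rises, and ATF4 switches on genes for amino acid synthesis and uptake, for feedback and, under lasting stress, for cell death. In the unfolded protein response, IRE1 (Ern1), which splices Xbp1 mRNA, and ATF6 instead switch on the chaperones, disulfide isomerases and degradation factors of the ER. The activity of ATF4, IRE1 and ATF6 is set largely after transcription, so mRNA levels of their genes do not measure it.

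The arms are known to be read through different short DNA elements. The 250 bases upstream of each annotated start were searched on both strands for the core of the C/EBP-ATF response element, TGATGNAA (called CARE core below), for the ER stress element, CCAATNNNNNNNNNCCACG (ERSE), and for TGACGTGG (UPRE), which the IRE1 branch is known to use. RefSeq windows on GRCm38.p6 were found for 34 members. The CARE core was found in 6 of 19 ATF4-arm genes with a window (31.6%), in 1 of 12 chaperone-arm genes and in 3.45% of all 32851 windows. The ERSE was found in 6 of 12 chaperone-arm genes (50%), in 0 of 19 ATF4-arm genes and in 0.113% of all windows. UPRE letters were found upstream of 0 members and in 0.563% of all windows. Genes with 2 windows had 2 chances of a match, and the members were listed as known targets, so these shares are a description. No member held more than 1 kind of motif, and both CARE cores of Slc7a11 lie close together.

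The stretches shown are a choice among genes named in the results below. CARE cores of Asns and Vldlr and ERSEs of Pdia6, Calr and Creld2 were found too and are not shown. Capitals mark the matched letters, and each is written 5′ to 3′ on the strand of the gene. The stretch of Slc7a11 holds its other CARE core near the end, on the opposite strand, in lower case.
Chac1: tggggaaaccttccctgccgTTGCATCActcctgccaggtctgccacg
Atf3: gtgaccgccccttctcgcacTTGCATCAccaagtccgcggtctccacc
Nupr1: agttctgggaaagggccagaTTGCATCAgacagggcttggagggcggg
Slc7a11: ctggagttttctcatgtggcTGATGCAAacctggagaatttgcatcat
Herpud1: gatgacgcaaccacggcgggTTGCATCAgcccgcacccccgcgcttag
Hspa5: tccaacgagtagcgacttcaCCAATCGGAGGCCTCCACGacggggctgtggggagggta
Hsp90b1: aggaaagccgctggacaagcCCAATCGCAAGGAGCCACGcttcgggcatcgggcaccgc
Dnajc3: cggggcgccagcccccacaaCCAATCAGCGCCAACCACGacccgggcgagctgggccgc

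On GRCm38 these lie at chr2:119351029-119351076 (Chac1, plus strand), chr1:191183416-191183463 (Atf3, minus), chr7:126625553-126625600 (Nupr1, minus), chr3:50443652-50443699 (Slc7a11, minus) and chr8:94386297-94386344 (Herpud1, plus). The ERSE stretches lie at chr2:34772005-34772063 (Hspa5, plus), chr10:86705618-86705676 (Hsp90b1, minus) and chr14:118937807-118937865 (Dnajc3, plus). Chac1, Atf3, Nupr1 and Slc7a11 share their matched letters, read on one strand or the other, with Herpud1, which was the only chaperone-arm gene with a CARE core. No CARE core was found in the windows of Trib3, Ddit3, Sesn2, Psph, Mthfd2, Slc3a2, Cebpb and Ppp1r15a. This says only that these letters are not in 250 bases. All of these were called lower with 12-HETE below, while Asns, which holds a core, was not called.

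**Figure D1:**
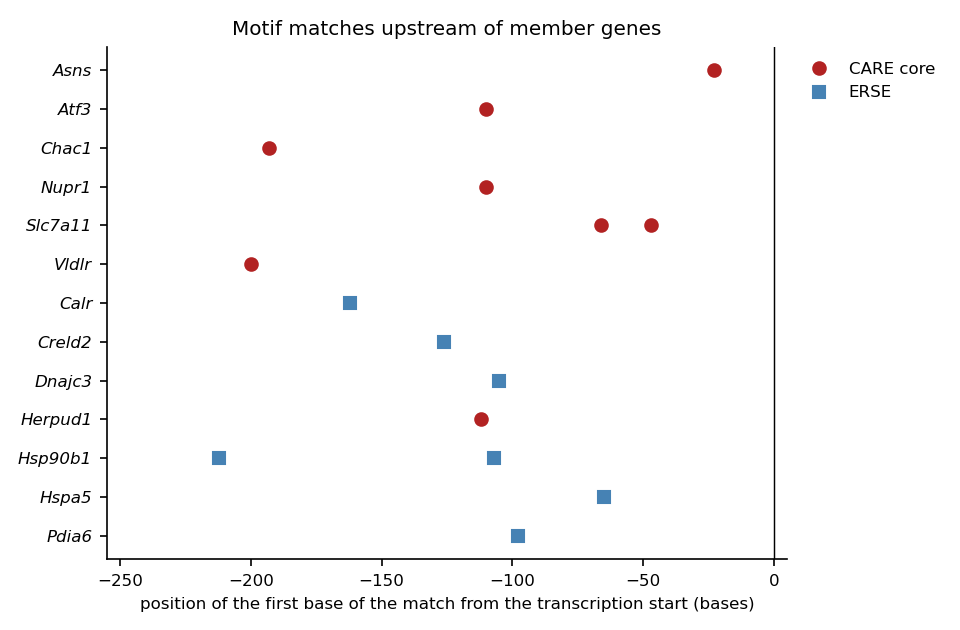
Positions of the CARE core (circles) and the ERSE (squares) in the 250 bases upstream of the 13 member genes that held a match, with the transcription start at 0 on the horizontal axis. ATF4-arm genes carry circles and chaperone-arm genes carry squares, except Herpud1, which carries a circle.

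Libraries of the endothelial table summed to 56.4 to 79.4 M, and EO771 libraries to 17.3 to 18.6 M. Low endothelial values tend to pile up in steps of 3.84 to 3.895, though many lie between steps. The endothelial totals were therefore not read as fragments, and over the step they came to 14.6 to 20.6 M. The summed level of 10 general endothelial markers was 2494 to 3654 CPM (counts scaled to the library total) in the endothelial libraries. The sum of 7 high endothelial markers was 497.2 to 556.1 CPM in BEC normal, 815.4 to 847.5 in BEC tumour, 1826 to 2144 in HEC normal and 2891 to 3727 in HEC tumour. Of these markers Glycam1 and Chst4 were at 0 in all BEC libraries, but Chst2 was at 0 in all HEC libraries, with 1284 to 1598 normalised counts in BEC normal, and Madcam1 was at 0 in HEC normal. Single libraries stood apart in such markers: Chst4 held 4.07 normalised counts in HEC normal replicate 2 against 19910 and 20210 in the others, and Fut7 held 14260 in HEC tumour replicate 3 against 66480 and 65520. Without either library no member lost its call. The sum of 8 myeloid markers was 1508 to 2036 CPM in BEC tumour, against 107.8 to 129.3 in BEC normal, 484.7 to 509.4 in HEC normal and 355.8 to 374.2 in HEC tumour. Each T and B cell marker list summed to at most 8.047 CPM in the endothelial libraries, and 4 of 6 T cell markers were at 0 in BEC normal and both HEC groups.

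Levels between genes were compared per kilobase of exon. In the endothelial cells the chaperone arm held the most abundant members. Calr, the calcium-binding lectin chaperone calreticulin, ranked first of the 39 in all 4 endothelial groups, with 32600 normalised counts per kilobase in BEC normal and 18420 in HEC tumour. Hsp90b1 (the chaperone GRP94) and Hspa5 (the chaperone BiP, whose release starts the unfolded protein response) were among the first 5 in each group. The median per kilobase of the ATF4 arm was 1537 in normal and 2857 in tumour BECs, and 3629 in normal and 2677 in tumour HECs. That of the chaperone arm lay between 2678 and 3105. In EO771 cells the first was Phgdh, which starts serine synthesis, with 7493 per kilobase under vehicle, and Calr was first under 12-HETE with 7574. The median of the ATF4 arm was 888.9 under vehicle and 188.4 under 12-HETE, and that of the chaperone arm 680 and 568.

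The highest library of a group exceeded the lowest by a median factor over members of between 1.06 and 1.26. Atf4 mRNA was less even: within each endothelial group its highest library held 1.64 to 1.99 times the lowest. In BEC tumour, for example, it held 28490, 15790 and 31470 normalised counts. This spread limits what can be said of Atf4 in endothelium. Under vehicle, 9 of 39 members varied by over 1.5 times between libraries, against 2 under 12-HETE.

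The question put to the EO771 libraries was which transcripts 12-HETE changes. With 12-HETE most of the ATF4 arm fell, while in the chaperone arm 1 gene did. Calls required both an adjusted p under 0.05 and a difference of over 2-fold (DESeq2 Wald test, Benjamini-Hochberg adjustment over 11602 genes). In the ATF4 arm 14 of 21 genes were called lower and 0 higher, where 7.79% of all genes tested were called lower and 2.38% higher. Judged by adjusted p alone, 20 of the 21 were lower, where 24.2% of all genes were lower and 22.7% higher. The median log2 fold change of the arm was −1.47, against 0.00 over all genes tested. In the chaperone arm 1 of 14 genes was called lower and 0 higher, by adjusted p alone 1 was lower and 4 were higher, and the median was 0.07.

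Chac1, which encodes a γ-glutamyl cyclotransferase that degrades glutathione and is among the most responsive ATF4 targets, fell furthest of the members. Its normalised counts were 2056, 2399 and 1902 under vehicle and 43.1, 38.4 and 41.3 under 12-HETE, a log2 fold change of −5.69 ± 0.18 (SE; adjusted p 7.1e-209). All vehicle libraries lay far above all 12-HETE libraries. Trib3, a pseudokinase that feeds back on ATF4, held 3307, 4467 and 2960 under vehicle and 155.1, 143.9 and 130.9 under 12-HETE (−4.64 ± 0.18, adjusted p 2e-144). Atf3, a stress-induced transcription factor, held 4005, 4693 and 4047 against 317.3, 358.8 and 293.3 (−3.72 ± 0.12, adjusted p 4.06e-194). Nupr1, a small stress-induced nuclear protein, held 544.3, 756.8 and 496.5 against 19.5, 36.5 and 32.5 (−4.34 ± 0.26, adjusted p 3.64e-59). In none of these genes did the groups overlap.

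The other factors and feedback genes fell as well. Ddit3, which encodes the pro-apoptotic factor CHOP, went from 1192, 1738 and 1199 to 214.6, 263.2 and 252.9 normalised counts (−2.50 ± 0.18, adjusted p 1.3e-40). Ppp1r15a (GADD34, which directs the phosphatase that reverses eIF2 phosphorylation) changed by −1.80 ± 0.19, Sesn2 (a leucine sensor that restrains mTORC1) by −1.70 ± 0.13 and Cebpb (a partner of ATF4 on DNA) by −1.47 ± 0.23. Vldlr, a lipoprotein receptor that ATF4 induces, changed by −1.53 ± 0.16. Atf4 itself held 7397, 7690 and 6380 against 4229, 4474 and 4385, a change of −0.71 ± 0.10 (adjusted p 3.3e-11), short of 2-fold. Part of Cebpb (20.7% of its exon bases) and of Ddit3 (10.9%) overlaps other genes, and strand use in counting is not stated.

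All 7 enzymes of the ATF4 arm were lower by adjusted p, 3 of them by over 2-fold. These were the one-carbon enzymes Aldh1l2 (−2.12 ± 0.29) and Mthfd2 (−1.35 ± 0.11) of the mitochondrion, and Psph, the last step of serine synthesis (−1.84 ± 0.16). Psph held 1168, 1442 and 1022 normalised counts under vehicle and 309.1, 360.7 and 342.5 under 12-HETE. Smaller changes were seen for asparagine synthetase Asns (−0.86 ± 0.10), for Shmt2 (−0.68 ± 0.10), which passes a carbon unit from serine to folate, and for the serine synthesis genes Psat1 (−0.52 ± 0.09) and Phgdh (−0.46 ± 0.11). Aldh1l2 rests on few reads, with 98.0 to 149.1 normalised counts under vehicle and 25.7 to 32.5 under 12-HETE, and 14.1% of its exon bases overlap another gene.

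Of the amino acid transporters, Slc3a2, the heavy chain shared by several of them, held 11490, 15250 and 10350 against 4870, 5116 and 4876 (−1.32 ± 0.15, adjusted p 2.73e-17). Its light chains differed in size of change. Slc7a11, the cystine importer, changed by −1.28 ± 0.20 and Slc7a5, a leucine importer, by −0.88 ± 0.07. Slc7a1, a transporter of arginine and lysine, was the 1 gene of the arm not past an adjusted p of 0.05 (−0.32 ± 0.14, adjusted p 0.051). It held 11130, 8159 and 11450 under vehicle and 8348, 8115 and 8249 under 12-HETE, so vehicle replicate 2 lay among the 12-HETE libraries.

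The sensors with Xbp1 moved less. Atf6 (−0.71 ± 0.09, adjusted p 8.38e-14), Xbp1 (−0.70 ± 0.18, adjusted p 0.000353) and Ern1 (−0.49 ± 0.11, adjusted p 2.58e-05) were lower by adjusted p and none by 2-fold. Eif2ak3 did not differ detectably, with 221.7 to 368.9 normalised counts under vehicle and 300.6 to 333.6 under 12-HETE (0.11 ± 0.20, adjusted p 0.676). Gene counts cannot show Xbp1 splicing.

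In the chaperone arm, Herpud1, an ER membrane protein of the degradation pathway, was the gene called lower. Its counts were 1484, 1640 and 1398 under vehicle and 597.7, 562.8 and 599.3 under 12-HETE (−1.36 ± 0.11, adjusted p 3.69e-34). Hspa5 held 16190, 19860 and 17280 against 16490, 15860 and 15690, and the groups overlapped (−0.15 ± 0.10, adjusted p 0.222). Dnajc3, a co-chaperone of BiP, was higher by adjusted p, at 796.6, 1026 and 941.8 against 1740, 1672 and 1700 (0.89 ± 0.12, adjusted p 2.45e-12). So were Hsp90b1 (0.75 ± 0.12), Calr (0.32 ± 0.07) and the degradation adaptor Sel1l (0.30 ± 0.09), all under 2-fold. The isomerases Pdia4 and Pdia6, the co-chaperones Dnajb9 and Sdf2l1, the exchange factor Hyou1, the secreted factors Manf and Creld2 and the degradation lectin Edem1 had log2 fold changes between −0.06 and 0.37, with adjusted p between 0.0681 and 0.997. Exons of Hsp90b1 overlap other genes over 15.7% of their length.

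**Figure D2:**
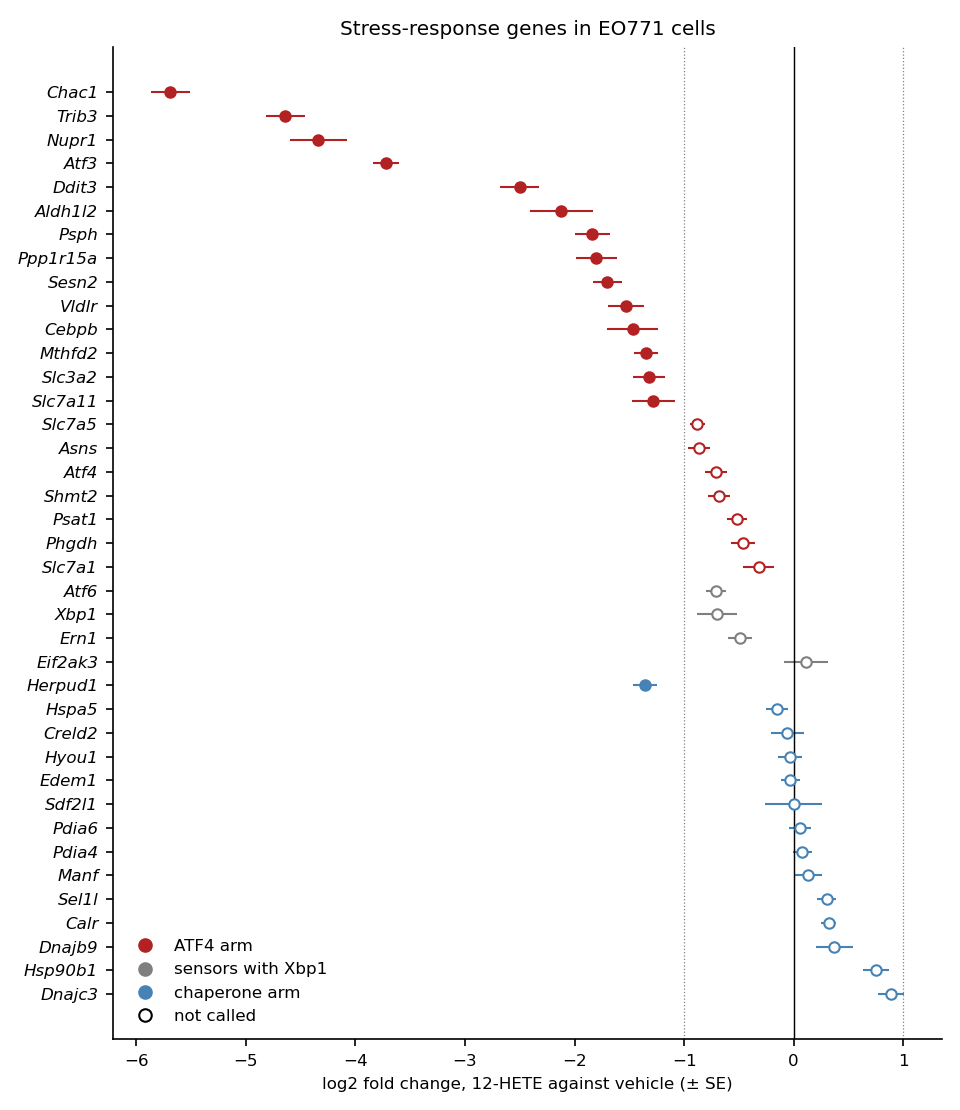
Log2 fold change of each of the 39 genes with 12-HETE against vehicle in EO771 cells, with its SE, coloured by arm, with filled points for genes called and dotted lines at 2-fold. The 14 called ATF4-arm genes lie between −5.69 and −1.28, while all chaperone-arm genes but Herpud1 (−1.36) lie between −0.15 and 0.89.

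Further genes of these pathways, came from longer lists. Of 37 further ATF4-pathway genes tested, 17 were called lower and 0 higher (7.79% and 2.38% of all genes), with a median of −0.85. The furthest were Gdf15, a stress-induced hormone (−3.40 ± 0.18), Slc6a9, a glycine transporter (−3.24 ± 0.24), Gpt2, a mitochondrial alanine aminotransferase (−2.45 ± 0.16), and Ndrg1 (−2.36 ± 0.19). Gdf15 held 2669, 3861 and 2580 under vehicle and 269.1, 314.4 and 276.5 under 12-HETE. Transfer RNA synthetase genes, a group that ATF4 is known to induce, made up 12 of the 37, with 4 called lower: Cars (−1.79 ± 0.11), Aars (−1.62 ± 0.10), Sars (−1.19 ± 0.11) and Nars (−1.01 ± 0.07). Of the 12, 11 were lower by adjusted p alone, and all ranged from −1.79 to −0.05 (Eprs). Of 56 further genes of ER folding, translocation and degradation, 2 were called higher and 0 lower, a share near the 2.38% of all genes called higher, and the median was 0.13. Adjusted p alone gave 22 higher and 8 lower (22.7% and 24.2% of all genes). The 2 called were the mannosidase Edem3 (1.17 ± 0.13) and Mbtps2 (1.08 ± 0.29), a protease that activates ATF6. The change of Mbtps2 was 0.75 without vehicle replicate 2.

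Of 11 genes for eIF2, its kinases, its phosphatase subunit and its exchange factor eIF2B, 1 was called lower, Eif2ak2, which encodes the RNA-activated, interferon-induced kinase PKR. It held 1551, 1696 and 2514 normalised counts under vehicle and 830.8, 856.5 and 901.4 under 12-HETE (−1.15 ± 0.18, adjusted p 3.47e-09). Vehicle replicate 3 set the size of this change, and without it the change was −0.91. Among the other kinases, Eif2ak1, activated by lack of haem, changed by 0.22 ± 0.09 and Eif2ak4, activated by lack of amino acids, by −0.14 ± 0.11.

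Other signals moved with the same treatment. Immediate early genes, which answer many stimuli within minutes, were called lower for 12 of 12 genes tested (7.79% of all genes), with a median of −2.21. The summed level of their list, which also holds the heat shock genes Hspa1a and Hspa1b, was 2360 to 2636 CPM under vehicle and 489.7 to 511.6 under 12-HETE. The share of counts on mitochondrial genes was 0.718% to 0.816% under vehicle and 2.24% to 2.45% under 12-HETE. The sum of 6 epithelial markers was 3240 to 4249 CPM under vehicle and 2182 to 2237 under 12-HETE, while that of 7 fibroblast and pericyte markers was 390.2 to 613.6 under vehicle and 997.7 to 1037 under 12-HETE. The part of these in the fall of the ATF4 arm was not tested.

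In endothelium the first comparison was between HECs and BECs, which come from different tissues, so that cell type and tissue cannot be told apart. In these bulk samples, fewer cells of a type and less RNA per cell cannot be told apart either. Without tumours, several stress-induced factors of the ATF4 arm, among them Atf3 and Chac1, stood higher in HECs. Between HEC normal and BEC normal, 6 of 21 ATF4-arm genes were called higher and 1 lower, where 17.1% of all 18511 genes tested were called higher and 15.1% lower. All 6 were among the 10 factors and feedback genes, whose median log2 fold change was 1.38. The 7 enzymes had a median of 0.11 and the 4 transporters one of −0.12, with 0 called. Adjusted p alone put 3 enzymes higher and 1 lower, and 2 transporters were higher and 2 lower. The higher enzymes included Asns (0.51 ± 0.08) and Mthfd2 (0.49 ± 0.05). Whether these roles differ from each other was not tested. Without the limit on size, 12 genes of the arm were higher and 5 lower, against 31.4% and 31.9% of all genes. The longer ATF4-pathway list did not stand higher in HECs. Of its 39 genes tested, 7 were called higher and 9 lower, with a median of −0.10. By adjusted p alone 14 were higher and 17 lower.

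Atf3 held 1272, 1472 and 1372 normalised counts in BEC normal and 8367, 6777 and 8305 in HEC normal (2.51 ± 0.09, adjusted p 1.52e-157). Chac1 held 1510, 1960 and 1746 against 9458, 9606 and 10170 (2.49 ± 0.10, adjusted p 9.63e-142). Trib3 held 1870, 2634 and 2083 against 7548, 7250 and 7415 (1.75 ± 0.11, adjusted p 4.23e-53). In each of these the HEC normal libraries lay above all BEC normal libraries. Nupr1 held 2158, 2763 and 2654 in BEC normal and 6983, 7269 and 7057 in HEC normal (1.49 ± 0.09, adjusted p 1.29e-54). Cebpb (2.07 ± 0.14) and Ppp1r15a (1.27 ± 0.16) were called as well. Ppp1r15a was uneven in HEC normal, with 11830, 11320 and 6968, but its lowest library was still above the 3978 to 4394 of BEC normal. Ddit3 (0.91 ± 0.07) and Slc3a2 (0.76 ± 0.08) were higher by less than 2-fold. Atf4 mRNA gave no detectable difference (0.02 ± 0.29, adjusted p 0.958), with overlapping libraries.

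Vldlr went the other way. It held 2583, 2248 and 2424 normalised counts in BEC normal and 12.2, 12.2 and 5.7 in HEC normal (−7.92 ± 0.39, adjusted p 1.16e-90). The HEC normal values are 3.10, 3.12 and 1.56 steps of the deposited values, so the size of this fold is not resolved.

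In the chaperone arm most genes were lower in HEC normal than in BEC normal by small amounts. By adjusted p alone 9 of 14 were lower and 3 higher (31.9% and 31.4% of all genes), with a median of −0.49. In each direction 1 gene was called. Dnajc3 held 6146, 5603 and 5809 in BEC normal and 1490, 1415 and 1496 in HEC normal (−2.0 ± 0.08, adjusted p 2.12e-138). Dnajb9, a co-chaperone that holds IRE1 inactive, held 1277, 1213 and 1164 against 2737, 2485 and 2628 (1.10 ± 0.07, adjusted p 1.69e-54). Neither gene's groups overlapped. Calr (−0.54 ± 0.04), Pdia6 (−0.59 ± 0.05), Pdia4 (−0.62 ± 0.05), Hyou1 (−0.55 ± 0.04) and Hspa5 (−0.64 ± 0.15) lay within a narrow range. Edem1 (0.96 ± 0.05) and Sdf2l1 (0.50 ± 0.07) were higher. Hsp90b1 (0.04) and Creld2 (−0.02) were nearly even. Of 57 further ER genes tested, 32 were lower and 11 higher by adjusted p (31.9% and 31.4% of all genes), with a median of −0.41. Of the sensors, Atf6 was lower (−0.83 ± 0.10) and Eif2ak3 lower (−0.40 ± 0.08), while Ern1 was higher (0.32).

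With tumours, 3 of the 21 ATF4-arm genes were called higher in HECs than in BECs and 1 lower, a share close to that of all genes, of which 11.2% were called higher and 10.7% lower. With no limit on size, 5 were higher and 9 lower (25.9% and 28.4% of all genes), and the median was 0.02. Atf3 held 4210, 4240 and 4482 in BEC tumour and 13110, 12960 and 12780 in HEC tumour (1.59 ± 0.09, adjusted p 4.18e-66). Ppp1r15a held 6359, 6651 and 6569 against 15510, 16520 and 16280 (1.30 ± 0.16, adjusted p 3.71e-15), and Cebpb 3770, 4604 and 4516 against 9490, 9609 and 8598 (1.10 ± 0.13, adjusted p 2.85e-15). In all 3 genes the HEC tumour libraries lay above every BEC tumour library. Chac1, by contrast, was lower in HEC tumour (−0.77 ± 0.10, adjusted p 1.26e-14) and so was Psat1 (−0.88 ± 0.11). Vldlr was called lower, at 525.9, 632.8 and 310.4 in BEC tumour and 32.3, 40.5 and 64.2 in HEC tumour (−3.42 ± 0.32, adjusted p 3.18e-26).

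All 4 sensors with Xbp1 were lower in HEC tumour than in BEC tumour by adjusted p, between −0.77 for Eif2ak3 and −0.19 for Ern1. By adjusted p alone, 8 of 14 chaperone-arm genes were lower and 1 higher, where 28.4% of all genes were lower and 25.9% higher. With the limit on size, 0 were called lower and 1 higher. The gene called higher was again Dnajb9, with 1862, 1735 and 1905 in BEC tumour and 3731, 3853 and 3810 in HEC tumour (1.05 ± 0.07, adjusted p 1.49e-52). Hyou1, at −0.99 ± 0.04, stood at the 2-fold limit. Without BEC tumour replicate 3, Hyou1 and Sel1l (−1.04) were also called and 3 members were called lower, and without HEC tumour replicate 3 Hyou1 was called as well (−1.01, 2 members lower). Hspa5, with 64270, 60100 and 55450 against 64790, 69560 and 45700, overlapped (0.00 ± 0.15, adjusted p 0.994).

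The tissues were digested with different enzymes for different times. The summed level of a list of 14 genes differed between the cell types. This list holds immediate early genes and also the heat shock genes Hspa1a and Hspa1b. It was 680.5 to 732 CPM in BEC normal, 641.8 to 679.1 in BEC tumour, 1437 to 1526 in HEC normal and 1661 to 1695 in HEC tumour. Between the normal groups 5 of these genes were called higher in HECs and 3 lower (17.1% and 15.1% of all genes). Between the tumour groups 7 were called higher and 0 lower (11.2% and 10.7% of all genes). Fibroblast and pericyte markers, at 203.5 to 211.1 CPM in BEC normal, summed to 22.4 to 23.5 in HEC normal and 10.6 to 11.8 in HEC tumour. Myeloid markers summed to 107.8 to 129.3 CPM in BEC normal and 484.7 to 509.4 in HEC normal. With tumours the order was the other way, at 1508 to 2036 in BEC tumour and 355.8 to 374.2 in HEC tumour. The part of any of these in the differences of members between HECs and BECs, among them the higher Atf3, Ppp1r15a and Cebpb, was not tested.

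**Figure D3:**
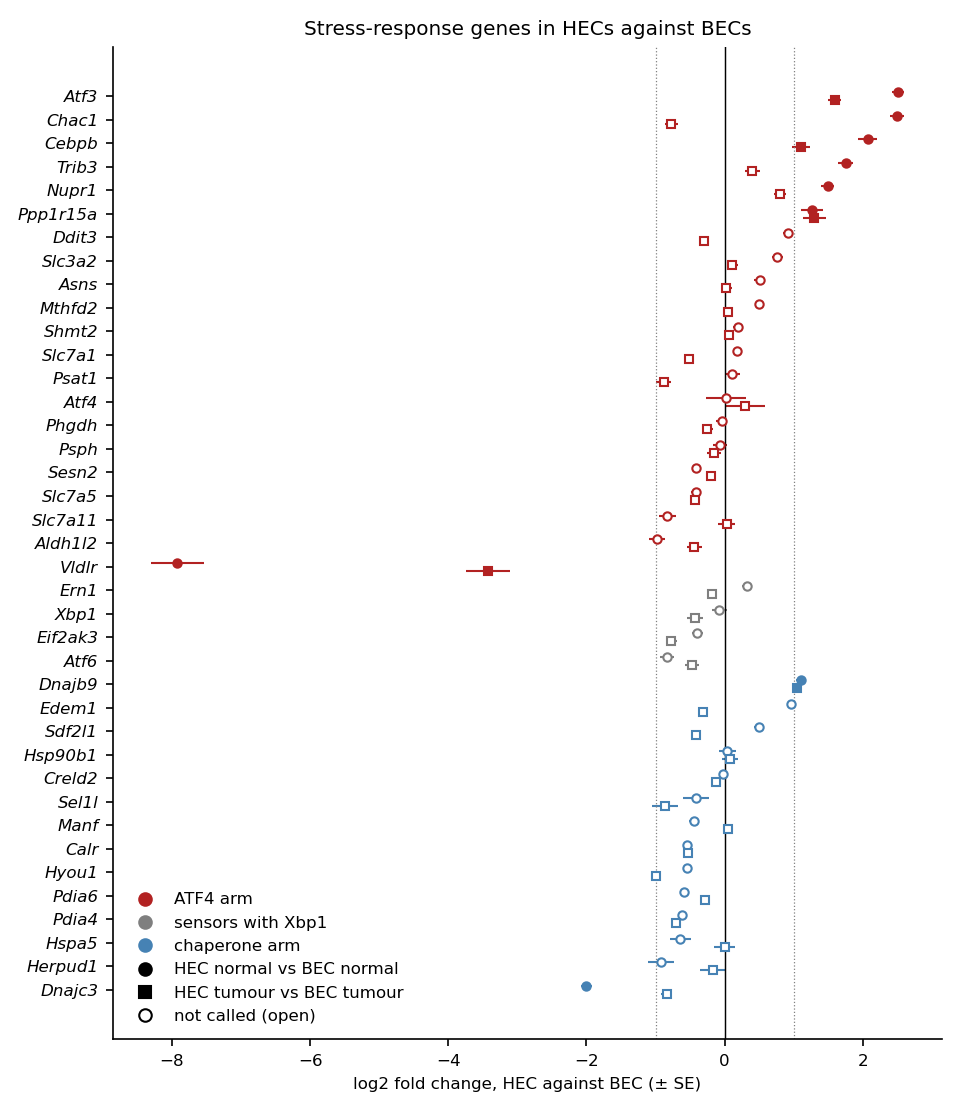
Log2 fold change of the 39 genes in HECs against BECs, with SE, without tumours (circles) and with tumours (squares), coloured by arm and filled where called. Atf3, Cebpb and Ppp1r15a lie above 1 in both states, Chac1 moves from 2.49 to −0.77, and Vldlr lies far to the left in both.

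The other question in endothelium concerned normal against tumour within HECs and within BECs. In HECs 2 of the 39 members were called. Between HEC tumour and HEC normal, 1 of 21 ATF4-arm genes was called lower and 1 higher, again close to the share of all genes, of which 4.58% were called higher and 3.21% lower. Adjusted p alone gave 9 lower and 5 higher (18.5% and 16.9% of all genes), with a median of −0.12. Chac1, the gene called lower, went from 9458, 9606 and 10170 to 4646, 4417 and 4081 normalised counts (−1.15 ± 0.10, adjusted p 4.39e-31), with no overlap. Ddit3 (−0.60 ± 0.07), Asns (−0.59 ± 0.08), Trib3 (−0.50 ± 0.11), Phgdh (−0.50 ± 0.08) and Nupr1 (−0.45 ± 0.09) were lower by less than 2-fold. Atf3 (0.73 ± 0.09), Ppp1r15a (0.68 ± 0.16) and Slc7a1 (0.53 ± 0.04) were higher. The gene called higher, Vldlr, went from 1.56 to 3.12 steps in HEC normal to between 7.26 and 15.1 in HEC tumour (2.19 ± 0.41, adjusted p 8.02e-07), so it rests on few fragments.

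In the chaperone arm 0 genes were called between HEC tumour and HEC normal by DESeq2 and 0 by edgeR. By adjusted p alone 5 were lower and 3 higher (18.5% and 16.9% of all genes). Edem1 (−0.55 ± 0.05), Sdf2l1 (−0.44 ± 0.07) and Pdia4 (−0.40 ± 0.05) were lower, and Hspa5 (0.56 ± 0.15), Dnajb9 (0.54) and Dnajc3 (0.40 ± 0.08) higher. Hspa5 was uneven in HEC tumour, with 64790, 69560 and 45700 against 41970, 34260 and 45970 in HEC normal. Its lowest HEC tumour library thus overlapped the highest HEC normal library. Marker sums moved here too. High endothelial markers summed to 1826 to 2144 CPM in HEC normal and 2891 to 3727 in HEC tumour. Myeloid markers summed to 484.7 to 509.4 and 355.8 to 374.2, and fibroblast and pericyte markers to 22.4 to 23.5 and 10.6 to 11.8. General endothelial markers summed to 2624 to 2777 and 2697 to 2744. The part of these markers in the changes of members within HECs was not tested.

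In BECs the called genes included Chac1 and Atf3. Between BEC tumour and BEC normal, 3 of 21 genes were called higher and 1 lower, a share near the 12.4% of all genes called higher and under the 10.8% called lower. By adjusted p alone 11 were higher and 6 lower (26.5% and 27.2% of all genes), with a median of 0.25. Chac1 went from 1510, 1960 and 1746 to 7123, 7492 and 7788 normalised counts (2.10 ± 0.10, adjusted p 3.2e-101). Atf3 went from 1272, 1472 and 1372 to 4210, 4240 and 4482 (1.65 ± 0.09, adjusted p 4.77e-68). Slc7a1 went from 10080, 9691 and 9495 to 22740, 23040 and 22370 (1.22 ± 0.04, adjusted p 2.29e-182). These 3 genes had no overlap between the groups and little spread within them. Trib3 (0.86 ± 0.11), Psat1 (0.70 ± 0.11), Cebpb (0.65 ± 0.14), Ddit3 (0.61 ± 0.07) and Slc3a2 (0.61 ± 0.08) were higher by less than 2-fold, and Trib3 reached 1.00 without BEC normal replicate 2. Vldlr fell from 2583, 2248 and 2424 to 525.9, 632.8 and 310.4 (−2.30 ± 0.29, adjusted p 1.09e-14).

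The chaperone arm of BECs had 0 genes called in either direction by DESeq2 and 0 by edgeR. By adjusted p alone 5 were higher and 5 lower (26.5% and 27.2% of all genes), with a median of −0.14. The degradation genes Sel1l (0.78 ± 0.19) and Edem1 (0.73 ± 0.05) were higher, as were Dnajb9 (0.59) and Sdf2l1 (0.48 ± 0.07). Dnajc3 (−0.76 ± 0.08), Manf (−0.45), Pdia6 (−0.37 ± 0.05), Pdia4 (−0.32 ± 0.05) and Calr (−0.29 ± 0.04) were lower. Sel1l was uneven in BEC tumour, at 18280, 18380 and 12180. Markers of other cells moved with this comparison. Beside the myeloid sum given above, fibroblast and pericyte markers summed to 203.5 to 211.1 CPM in BEC normal and 33.3 to 58.1 in BEC tumour, and epithelial markers to 3.61 to 6.92 and 16.7 to 90.1, the highest being BEC tumour replicate 3. Of the 14 genes of the immediate early list, 1 was called higher and 5 lower, with a median of −0.90 (12.4% and 10.8% of all genes). Fat pad and tumour were digested with different enzymes for different times. The part of these markers, of this list and of the digestion in the changes of the members was not tested. The fat pad and the tumour are different tissues, which cannot be told apart from the presence of a tumour.

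Whether HECs and BECs changed differently was tested by an interaction, the log2 change in HECs minus the one in BECs. It was called negative for 3 ATF4-arm genes and positive for 1, where 12.1% of all genes were negative and 11.2% positive. By adjusted p alone 11 of 21 were negative and 4 positive (23.8% and 22.9% of all genes), with a median of −0.44 against 0.00 over all genes. Chac1 had an interaction of −3.26 ± 0.14 (adjusted p 1.76e-122): it rose in BECs and fell in HECs, so that the order of the cell types was turned. Trib3 (−1.36 ± 0.16, adjusted p 2.18e-16) and Ddit3 (−1.21 ± 0.10, adjusted p 5.36e-33) also differed in that direction. Ddit3 went from 3257, 3762 and 3652 to 5424, 5310 and 5585 normalised counts in BECs and from 6827, 6535 and 6676 to 4455, 4623 and 4160 in HECs. Trib3 went to 3833, 3919 and 4186 in BEC tumour and to 5064, 5478 and 5182 in HEC tumour. For both genes, BEC normal was thus lowest and HEC normal highest of the 4 groups. Psat1 (−0.98 ± 0.15), Cebpb (−0.97 ± 0.19) and Atf3 (−0.92 ± 0.13) stood just short of the limit. Of these, Atf3 was higher with tumour in both cell types. The positive gene, Vldlr (4.50 ± 0.50, adjusted p 3.72e-18), rests on the low HEC values given above. Of the 14 genes of the immediate early list, the interaction was called positive for 7 and negative for 1, with a median of 1.06. Among these, Fosb and Egr2 lost the call under some alternatives. The part of this list and of the digestion in the interactions of the members was not tested.

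In the chaperone arm 1 interaction was called in each direction, and the median was −0.02. Dnajc3 (1.16 ± 0.11, adjusted p 8.26e-24) fell in BECs, from 6146, 5603 and 5809 to 3658, 3535 and 3178, and rose in HECs, from 1490, 1415 and 1496 to 1808, 1979 and 2012. Edem1 (−1.29 ± 0.07, adjusted p 7.09e-67) rose in BECs, from 6074, 5984 and 6457 to 10500, 10170 and 10120, and fell in HECs, from 12560, 11700 and 11810 to 8410, 7938 and 8245. In neither gene did the tumour and normal libraries of a cell type overlap.

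Among 39 further ATF4-pathway genes tested, the interaction was called positive for 6 and negative for 6, near the 11.2% and 12.1% of all genes, with a median of 0.00. Gdf15 held 2594, 3340 and 2979 in BEC normal, 18150, 18840 and 19100 in BEC tumour, 44810, 43750 and 47090 in HEC normal and 33160, 34190 and 30690 in HEC tumour (interaction −3.12 ± 0.12, adjusted p 2.79e-136). Slc6a9 (−2.0 ± 0.18), Bbc3, a pro-apoptotic BH3 protein (−2.07 ± 0.15), and Ndrg1 (−2.67 ± 0.11) were likewise negative. In the positive direction stood Cth, an enzyme of cysteine synthesis (4.62 ± 0.44), and Slc7a3, a cationic amino acid transporter (3.63 ± 0.54).

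**Figure D4:**
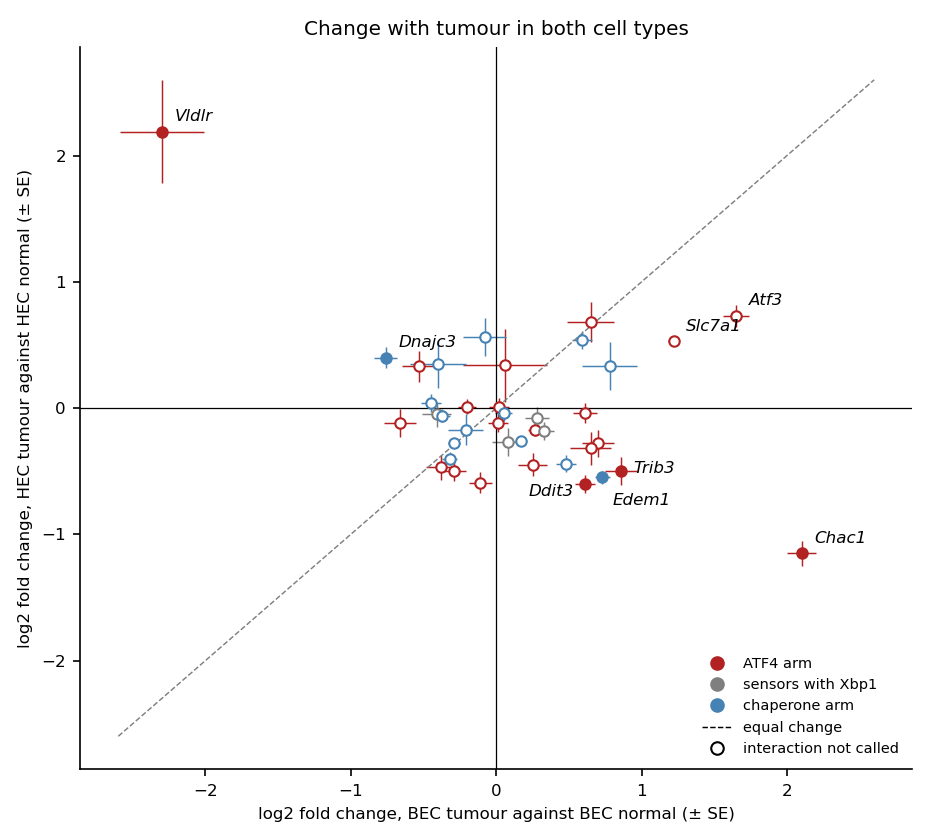
Log2 fold change with tumour in BECs (horizontal) and in HECs (vertical) for the 39 genes, with SE, coloured by arm and filled where the interaction was called, with a dashed line where both changes are equal. Chac1 lies at 2.10 in BECs and −1.15 in HECs, and Ddit3, Trib3 and Edem1 also lie on the side higher in BECs and lower in HECs.

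The tables were scaled separately, so levels cannot be compared between endothelium and EO771. Hspa5 ran from 34260 to 69560 normalised counts over the 12 endothelial libraries and from 15690 to 19860 over the 6 EO771 libraries.

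**Figure D5:**
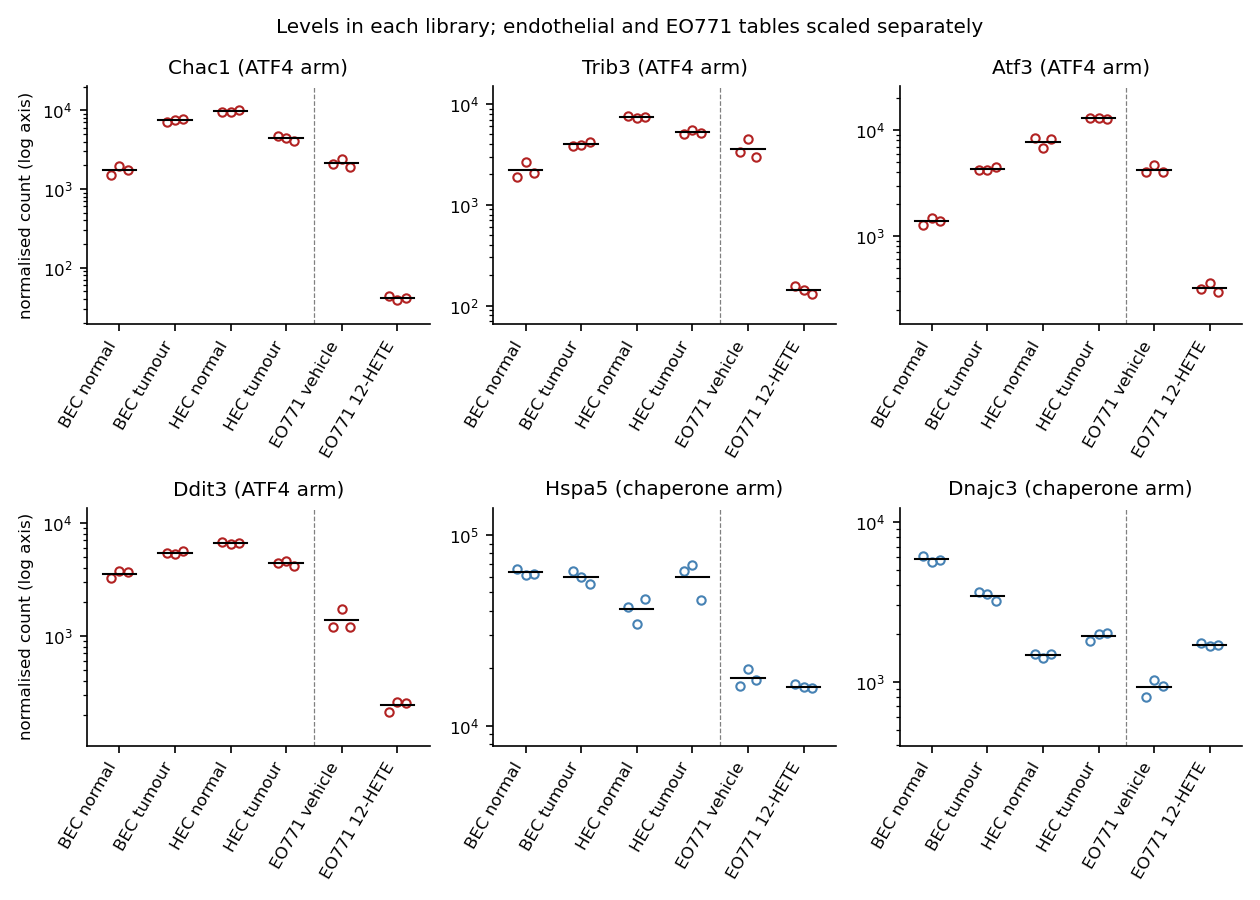
Normalised counts of 4 ATF4-arm and 2 chaperone-arm genes in every library (circles) with the group mean (bar) on log axes, where the dashed line separates the endothelial from the EO771 table. Chac1 falls from 1902 to 2399 under vehicle to 38.4 to 43.1 under 12-HETE, while Hspa5 stays between 15690 and 19860.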

How the data were processed

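RNA-seq of 12 sorted endothelial and 6 EO771 libraries was analysed. For the endothelial table the authors used STAR for alignment to GRCm38 and featureCounts for counting. Its deposited values were used as estimated counts, since they are whole numbers whose low values tend to pile up in steps of 3.84 to 3.895 (period searched between 3 and 5). For EO771 the authors deposited raw counts by gene symbol. Library kits are named differently in labels and methods, and strand use is not stated. Members were matched by Ensembl identifier (GENCODE M21, GRCm38) or by symbol. Of 2 identifiers named Ddit3, the one with the longer exons was used.

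Lines with a mean of at least 10 were tested with DESeq2 1.42.0 (R 4.3.3; two-sided Wald test, Benjamini-Hochberg adjustment), in one fit of 12 endothelial libraries (18511 genes) and one of 6 EO771 libraries (11602 genes). A gene was called at an adjusted p under 0.05 and a log2 fold change over 1 in size. Levels are DESeq2 normalised counts, and errors are SE. No molecular identifiers are described, so reads may share a molecule. With groups of 3, the smallest two-sided exact permutation p is 0.1. Scripts were tested on simulated data. The members and lists were chosen with earlier results of these data known. All 39 members are named. For each comparison, arm and direction, up to 4 called members with the largest Wald statistic are given in full. Genes and counts of the further lists are given for some comparisons only. Further values were chosen after they were seen.

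Alternatives were edgeR 4.0.16, TMM size factors, no filter on low counts, adjusted p alone, leaving out each library, the replicate number as a block, dividing endothelial values by the step, and fitting only the groups compared. The fits reported used the group only and took no libraries as pairs. In EO771, deviations of same-numbered libraries correlated at 0.127, 0.231 and 0.404, though the labels state no pairing. The replicate number entered there only as the block among the alternatives.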

Additional observations from a re-analysis of the deposited data

Results flagged for a closer look

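For 6 of the 39 members the change with tumour in HECs differed from that in BECs by over 2-fold in the interaction test (DESeq2 Wald, adjusted over 18511 genes), which is what singled them out. Of all genes 11.2% were called positive and 12.1% negative, so the members were not called more often than genes in general. By adjusted p alone 10 members were positive and 16 negative, where 22.9% of all genes were positive and 23.8% negative. The differences on the log2 scale were −3.26 for Chac1, −1.36 for Trib3, −1.21 for Ddit3, −1.29 for Edem1, 1.16 for Dnajc3 and 4.50 for Vldlr. Each of the 6 moved in opposite directions in the cell types, in BECs and HECs by 2.10 and −1.15 for Chac1, 0.86 and −0.50 for Trib3, 0.61 and −0.60 for Ddit3, 0.73 and −0.55 for Edem1, −0.76 and 0.40 for Dnajc3 and −2.30 and 2.19 for Vldlr. In Vldlr the HEC normal libraries held 1.56 to 3.12 steps of the deposited values. In BECs the fat pad and the tumour are different tissues, so tissue and tumour cannot be told apart there.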

How the results depend on the processing

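Of the 41 calls of a member in a comparison, 0 were lost and 0 were reversed under any alternative. With the limit on size kept, 9 others were gained. By adjusted p alone, which drops that limit, more members passed. Shares of all genes are in brackets. HEC normal against BEC normal gave 16 higher and 16 lower (31.4% and 31.9%). HEC tumour against BEC tumour gave 6 higher and 21 lower (25.9% and 28.4%). HEC tumour against HEC normal gave 8 and 16 (16.9% and 18.5%). BEC tumour against BEC normal gave 18 and 12 (26.5% and 27.2%). The interaction gave 10 positive and 16 negative (22.9% and 23.8%). In EO771, 4 were higher and 24 lower (22.7% and 24.2%). The 1 member called lower in HEC tumour against BEC tumour became 2 with TMM size factors, with edgeR and with only the groups compared, and 1 to 3 when leaving out each library in turn, 3 of them without BEC tumour replicate 3. With TMM and edgeR, Edem1 (1.00, HEC normal against BEC normal), Hyou1 (−1.01, HEC tumour against BEC tumour) and the interactions of Psat1 (−1.05) and Cebpb (−1.03) passed 2-fold. Herpud1 and Aldh1l2 (HEC normal against BEC normal), Sel1l (HEC tumour against BEC tumour), Trib3 (BECs) and the interaction of Atf3 passed it only without single libraries, Trib3 at 1.00 without BEC normal replicate 2.

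With the replicate block the EO771 counts were 15 lower and 0 higher, and it changed no call there. In endothelium same-numbered libraries correlated between −0.0814 and 0.279, so they were not taken as paired, and with the replicate block the counts were 7 and 2, 4 and 1, 1 and 1, 3 and 1, and for the interaction 2 and 4. Depth limits Vldlr in HECs and Aldh1l2 in EO771.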

Other observations

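The genes given here were chosen after their values were seen. Among the further genes of ER function, Creb3l1, a membrane-bound transcription factor released under ER stress, held 5110, 5171 and 4991 normalised counts in BEC normal and 467.5, 736.8 and 657.3 in BEC tumour (log2 fold change −3.04 ± 0.20, DESeq2 adjusted p 2.83e-48). It held 99.4 to 121.4 in HEC normal and 52.0 to 105.2 in HEC tumour. Crebrf, a factor that restrains another such protein, held 2517, 2535 and 2437 in HEC normal and 331.6, 320.1 and 438.8 in BEC normal (2.78 ± 0.13, adjusted p 4.18e-96).

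The growth factor Vegfa, which ATF4 is known to induce, was lower in BEC tumour (1020, 1017 and 1108) than in BEC normal (3407, 3503 and 3504), with a change of −1.73 ± 0.08 (adjusted p 1.66e-109). In EO771 cells it held 2368, 2076 and 1834 under vehicle and 732.2, 592.3 and 533.4 under 12-HETE (−1.76 ± 0.16, adjusted p 4.63e-28).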
